A study of Homo sapiens with 6 samples.

Results

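The genes described here encode the P-type and V-type ATPase pumps, which spend ATP to carry ions, metals, lipids or polyamines across membranes. They were taken as every gene whose symbol starts with ATP1A, ATP1B, ATP2A, ATP2B, ATP2C, ATP6V, ATP6AP, ATP7, ATP8A, ATP8B, ATP9, ATP10, ATP11 or ATP13A. This gave 62 of the 17318 genes listed, 25 of V-type and 37 of P-type, and 38 of them (20 V-type and 18 P-type) had a mean of at least 1 FPKM and were tested. RNA was measured in SNU216, an established human gastric cancer cell line, 48 h after transfection. The 3 siOXTR libraries came from cells given an siRNA against OXTR, the oxytocin receptor gene, and the 3 siControl libraries from cells given a control siRNA, all grown in the same medium. The values are FPKM, which divide a gene's fragments by transcript length and by the library's total, and the study's title sets OXTR beside YAP in gastric cancer.

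P-type pumps work through a large membrane protein that passes through a phosphorylated state in each cycle. The smaller beta subunits of the Na/K pump (ATP1B genes) are counted as P-type here. The Na/K pump keeps the sodium and potassium gradients at the cell surface, calcium pumps empty the cytosol into the endoplasmic reticulum, the Golgi or the medium, copper pumps load and export copper, and P4 flippases move lipids between the leaflets of a bilayer. The V-ATPase is a rotary proton pump that acidifies lysosomes, endosomes and the Golgi. Its V1 part is a cytosolic assembly that splits ATP, and its V0 part sits in the membrane and conducts protons. In the stomach, acid secretion is the task of another P-type pump, the H/K pump of parietal cells, whose genes ATP4A and ATP4B were at most 0.27 FPKM in every library.

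Values of all genes set the scale. OXTR held 4.76, 4.65 and 5.34 FPKM in siOXTR, against 39.37, 38.87 and 39.02 FPKM in siControl, so its level followed the labels in every library (log2 fold change -2.76, SE 0.061, adjusted p = 6.39e-11, limma). Sums of FPKM ran from 446246 to 459595 in siOXTR and from 417829 to 434167 in siControl, and the depth behind them is unknown. Of the 11550 tested genes 59.8% were called in siOXTR as deposited, 42.2% higher and 17.6% lower (limma, adjusted p under 0.05), with a median log2 fold change of 0.13. When each library was divided by the median of its ratios to the geometric mean of all libraries (median-ratio scaling), 44.0% were called, 19.8% higher and 24.2% lower, with a median of 0.016. Libraries of 1 group correlated at 0.995 to 0.998 and libraries of different groups at 0.974 to 0.976 on the log2 scale. Of 5 epithelial marker genes 1 rose (KRT19) and 2 fell (EPCAM and CDH1), with sums of 7707 to 7867 FPKM in siOXTR and 6570 to 7622 FPKM in siControl. The 4 listed fibroblast markers summed to at most 0.27 FPKM in siOXTR and 0.81 FPKM in siControl, the 3 endothelial ones to at most 0.62 FPKM in siOXTR and 0.96 FPKM in siControl, and the 5 blood ones to 9.22 to 10.3 FPKM in siOXTR and 9.54 to 11.4 FPKM in siControl, mostly CD68. The part of these markers in the pump results was not tested. Nothing in the labels ties the 3 libraries of a group to separate cultures, and the p-values therefore cover the spread among these libraries alone, possibly a technical one.

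The pumps split by type. These are bulk libraries, in which fewer cells of a kind and less RNA per cell cannot be told apart. Of the 18 tested P-type genes 16 fell in siOXTR, 2 did not pass the test and none rose, where 17.6% of all tested genes were lower and 42.2% higher. One of the 16, ATP7A, passed the limit of 1 FPKM only through its siControl values. Of the 10 tested V1 genes 7 rose and none fell, while the 8 tested V0 genes gave 5 falls and 1 rise, and both accessory genes fell. The medians of the log2 fold change were -0.60 for P-type, -0.21 for V0 and 0.28 for V1 genes, beside 0.13 for all tested genes. After median-ratio scaling 17 P-type genes were lower and none higher, 5 V0 genes were lower and none higher, and 5 V1 genes were higher and none lower. Of all tested genes 24.2% were lower and 19.8% higher after this scaling. Of the 38 genes only ATP6V1C1, which did not pass under either scaling, changed sign between them.

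**Figure D1:**
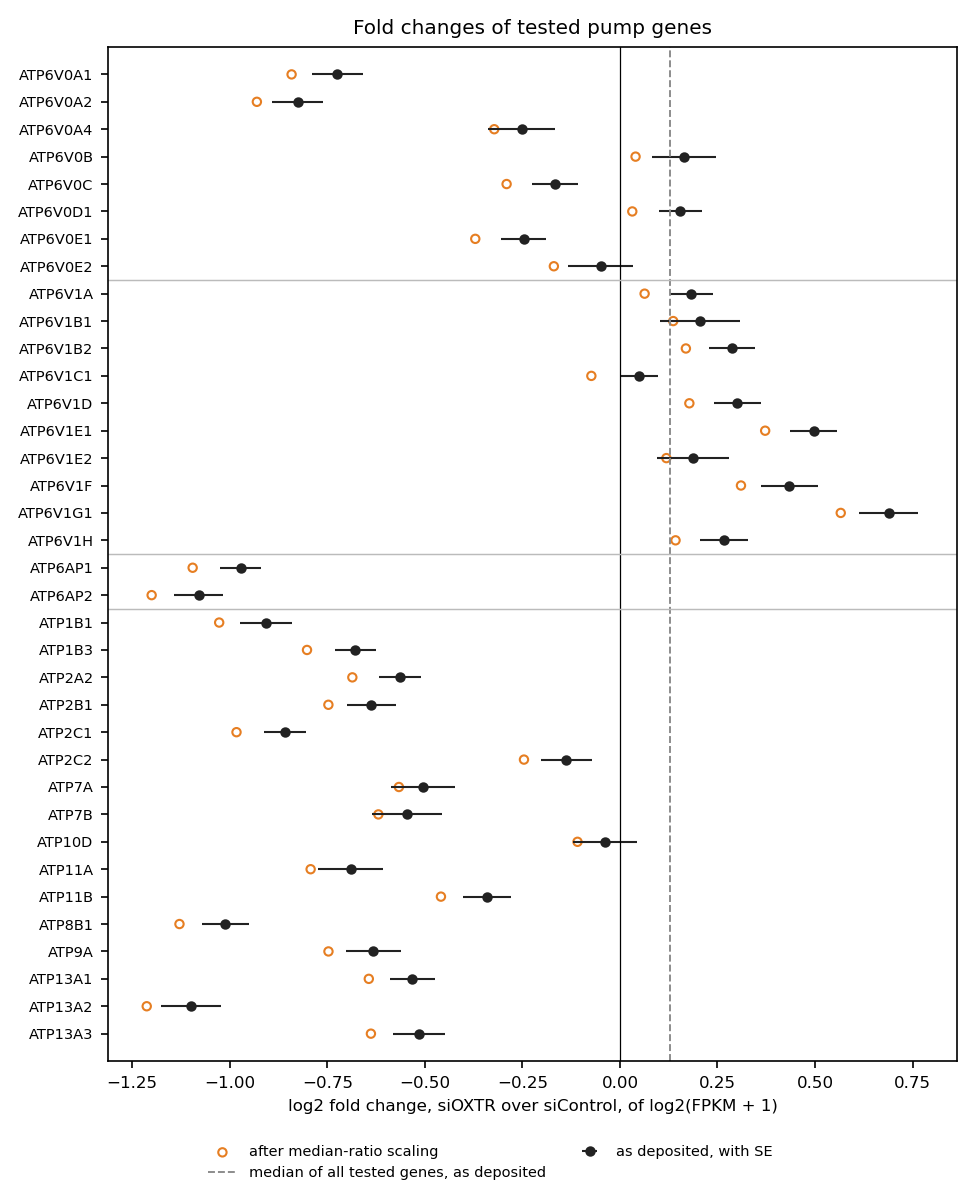
Log2 fold change of 36 of the 38 tested pump genes, siOXTR over siControl, on log2(FPKM + 1). Filled points with bars are the values as deposited with their SE, open circles those after median-ratio scaling, the dashed line marks the median of all tested genes (0.13), and grey lines part V0, V1, accessory and P-type genes from top to bottom. V1 genes lie right of 0 as deposited and P-type genes left of it.

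The promoters of 4 V-ATPase genes are shown because V-ATPase genes are known targets of the lysosomal transcription factor TFEB, which binds the E-box CACGTG, and because these genes cover the largest V1 rise (ATP6V1G1), both V0 genes with a positive fold change (ATP6V0B and ATP6V0D1) and the largest V0 fall (ATP6V0A2). Each is the RefSeq window of 300 bases on GRCh38.p14, from 250 bases before the gene's start to 50 after it, with CACGTG in capitals.
ATP6V1G1, chr9:114587519-114587818, plus strand: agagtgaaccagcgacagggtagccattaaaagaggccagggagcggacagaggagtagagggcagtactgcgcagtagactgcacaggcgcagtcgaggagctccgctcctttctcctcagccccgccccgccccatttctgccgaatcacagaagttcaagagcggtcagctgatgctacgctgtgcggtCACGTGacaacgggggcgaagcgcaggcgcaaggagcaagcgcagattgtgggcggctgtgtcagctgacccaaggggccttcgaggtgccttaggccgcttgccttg
ATP6V0B, chr1:43974710-43975009, plus strand: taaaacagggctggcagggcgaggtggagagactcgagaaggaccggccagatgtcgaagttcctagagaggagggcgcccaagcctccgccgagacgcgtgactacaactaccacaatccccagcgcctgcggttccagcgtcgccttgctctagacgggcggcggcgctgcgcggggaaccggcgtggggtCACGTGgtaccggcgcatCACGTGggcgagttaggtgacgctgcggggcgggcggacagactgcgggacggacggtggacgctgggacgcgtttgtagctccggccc
ATP6V0D1, chr16:67481108-67481407, minus strand: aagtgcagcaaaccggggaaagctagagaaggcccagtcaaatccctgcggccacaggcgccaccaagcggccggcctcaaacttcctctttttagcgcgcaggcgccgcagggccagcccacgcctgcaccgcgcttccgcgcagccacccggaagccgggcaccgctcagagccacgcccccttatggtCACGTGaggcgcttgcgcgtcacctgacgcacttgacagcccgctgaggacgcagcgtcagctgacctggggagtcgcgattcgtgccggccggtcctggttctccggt
ATP6V0A2, chr12:123712103-123712402, plus strand: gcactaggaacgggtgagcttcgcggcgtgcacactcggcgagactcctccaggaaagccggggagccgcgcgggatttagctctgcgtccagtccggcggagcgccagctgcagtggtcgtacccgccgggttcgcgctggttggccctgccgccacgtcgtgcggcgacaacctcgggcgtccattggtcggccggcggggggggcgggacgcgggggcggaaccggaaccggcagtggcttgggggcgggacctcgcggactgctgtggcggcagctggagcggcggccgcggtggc

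The E-box began at -58 from the gene's start in ATP6V1G1, at -57 and again at -39 in ATP6V0B and at -59 in ATP6V0D1, and the ATP6V0A2 window held none. Windows were in the table for 27 of the 38 tested pump genes. Among these, 3 of 7 V0 genes (the third being ATP6V0E2), 1 of 5 V1 genes, neither accessory gene and 2 of 13 P-type genes (ATP2B1 and ATP7A) held CACGTG, beside 12.7% of the tested genes with a window. The longer GTCACGTG, searched on both strands and containing the shorter motif, was in 2 V0 genes, 1 V1 gene and 2 P-type genes, beside 5.39% of tested genes. The windows of ATP6V1E1, ATP6V1F and ATP6V1D, which rose, and of ATP6V0A1 and ATP6AP1, which fell, held neither motif. A match describes the letters of a window and does not show that a factor bound there.

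Among V1 genes the largest rise was that of ATP6V1G1, which encodes a subunit of the peripheral stalk. It held 53.24, 58.63 and 62.72 FPKM in siOXTR, against 34.55, 32.95 and 39.79 FPKM in siControl, a ratio of means of 1.63 (log2 fold change 0.69, SE 0.076, adjusted p = 1.29e-05). All siOXTR libraries lay above all siControl libraries. ATP6V1E1, its partner in the peripheral stalk, held 94.91, 101.15 and 102.75 FPKM in siOXTR and 65.24, 71.77 and 74.15 FPKM in siControl (log2 fold change 0.50, SE 0.060, adjusted p = 2.63e-05). ATP6V1F, a subunit of the central rotor, held 97.50, 101.19 and 92.32 FPKM in siOXTR and 69.89, 80.33 and 65.06 FPKM in siControl (0.43, SE 0.072, adjusted p = 0.000331). The groups did not overlap in either gene. ATP6V1D, the rotor's shaft, held 49.54, 55.01 and 56.62 FPKM in siOXTR and 42.56, 42.61 and 44.94 FPKM in siControl (0.30, SE 0.060, adjusted p = 0.00110).

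The catalytic head is built of A and B subunits. ATP6V1A, which carries the ATP-splitting site, held 23.67, 23.51 and 23.96 FPKM in siOXTR and 21.09, 19.67 and 21.58 FPKM in siControl (0.18, SE 0.055, adjusted p = 0.0129). ATP6V1B2, the main B subunit here, held 19.58, 19.07 and 20.44 FPKM in siOXTR and 15.31, 15.62 and 16.96 FPKM in siControl (0.29, SE 0.059, adjusted p = 0.00140). In both genes every siOXTR library was above every siControl library. ATP6V1H, a regulatory subunit, held 69.91, 71.54 and 72.47 FPKM in siOXTR and 54.21, 59.69 and 63.87 FPKM in siControl (0.27, SE 0.061, adjusted p = 0.00292). ATP6V1A and ATP6V1H did not pass after median-ratio scaling, at 0.063 (adjusted p = 0.378) and 0.14 (adjusted p = 0.0777).

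The other 3 tested V1 genes did not pass. ATP6V1C1, which joins the stalks to V0, held 39.23, 39.34 and 39.90 FPKM in siOXTR and 37.61, 37.71 and 39.11 FPKM in siControl (0.049, SE 0.049, adjusted p = 0.408), and its groups did not overlap although the gap was small. After median-ratio scaling its value was -0.073 (adjusted p = 0.255). ATP6V1B1, the B subunit known from kidney cells, held 1.63, 1.37 and 1.28 FPKM in siOXTR and 1.28, 0.82 and 1.23 FPKM in siControl (0.21, SE 0.10, adjusted p = 0.0998). ATP6V1E2, the testis form of E, held 1.08, 1.5 and 1.48 FPKM in siOXTR and 1.07, 1.09 and 1.02 FPKM in siControl (0.19, SE 0.091, adjusted p = 0.0947). Both sat close to the limit of 1 FPKM and their groups overlapped.

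The 8 V0 genes did not move as one. The a subunit, a large membrane protein that forms the proton half-channels and targets the pump to its organelle, comes in several isoforms. ATP6V0A2, the form known from the Golgi, held 3.71, 3.52 and 4.00 FPKM in siOXTR, against 7.43, 7.43 and 7.35 FPKM in siControl, a fall of 1.98-fold (log2 fold change -0.83, SE 0.065, adjusted p = 5.42e-07). ATP6V0A1 held 12.56, 11.95 and 11.56 FPKM in siOXTR and 21.05, 21.77 and 18.80 FPKM in siControl (-0.72, SE 0.066, adjusted p = 2.04e-06). Every siOXTR library of both isoforms was below every siControl library. ATP6V0A4, the kidney form, held 1.17, 1.04 and 1.11 FPKM in siOXTR and 1.38, 1.41 and 1.75 FPKM in siControl (-0.25, SE 0.086, adjusted p = 0.0236). That call was lost without siControl replicate 3, where its log2 fold change was -0.19 (adjusted p = 0.0940), and without siOXTR replicates 2 and 3 in turn (adjusted p = 0.0799 and 0.0580). With median-ratio scaling ATP6V0A4 was at -0.32 (adjusted p = 0.0091).

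The proteolipids and small subunits of V0 changed less than ATP6V0A1 and ATP6V0A2. ATP6V0C, which builds most of the rotating c ring and had the highest FPKM of the V-ATPase genes, held 157.06, 158.09 and 152.29 FPKM in siOXTR and 179.59, 184.67 and 161.28 FPKM in siControl (-0.17, SE 0.059, adjusted p = 0.0289). The groups did not overlap, but leaving out any 1 library other than siControl replicate 3 put the adjusted p between 0.0532 and 0.103. After median-ratio scaling ATP6V0C was at -0.29 (adjusted p = 0.00162). ATP6V0B, the variant proteolipid c'', held 107.00, 115.48 and 98.39 FPKM in siOXTR and 97.66, 105.04 and 83.94 FPKM in siControl (0.16, SE 0.081, adjusted p = 0.0976), with overlapping groups. It passed without siOXTR replicate 3 (log2 fold change 0.22, adjusted p = 0.0496) and without siControl replicate 2 (0.23, adjusted p = 0.0340). Under median-ratio scaling it was at 0.04 (adjusted p = 0.7125). ATP6V0E1, a small membrane subunit, held 75.82, 78.39 and 85.27 FPKM in siOXTR and 91.61, 93.49 and 99.45 FPKM in siControl (-0.25, SE 0.059, adjusted p = 0.00340), and the groups did not overlap. Median-ratio scaling put ATP6V0E1 at -0.37 (adjusted p = 0.0002456). Its paralogue ATP6V0E2 held 24.88, 21.81 and 19.52 FPKM in siOXTR and 22.21, 24.90 and 21.33 FPKM in siControl (-0.049, SE 0.083, adjusted p = 0.626), with overlapping groups.

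ATP6V0D1 belongs to V0 by name but its protein does not cross the membrane, since it caps the c ring from the cytosolic side. It held 57.32, 58.18 and 60.31 FPKM in siOXTR, against 49.28, 54.64 and 53.82 FPKM in siControl (0.15, SE 0.055, adjusted p = 0.0292), the single V0 rise. After median-ratio scaling it was at 0.032 (adjusted p = 0.672), and it did not pass without siOXTR replicate 2 (adjusted p = 0.0734), siOXTR replicate 3 (adjusted p = 0.112) or siControl replicate 1 (adjusted p = 0.10). ATP6V0C, ATP6V0E1, ATP6V1E1 and ATP6V1G1 have annotated pseudogenes that may share reads with them, so their levels are less certain.

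Both accessory genes fell, beside 17.6% of all tested genes. ATP6AP1 (Ac45), a glycoprotein that helps V0 to assemble, held 41.26, 41.92 and 41.21 FPKM in siOXTR, against 78.52, 86.74 and 81.83 FPKM in siControl (-0.97, SE 0.053, adjusted p = 1.93e-08). ATP6AP2, the (pro)renin receptor that also joins V0, held 21.17, 22.11 and 21.55 FPKM in siOXTR and 45.21, 44.06 and 51.32 FPKM in siControl, a fall of 2.17-fold (-1.08, SE 0.063, adjusted p = 3.49e-08). In both the highest siOXTR library was well below the lowest siControl library.

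**Figure D2:**
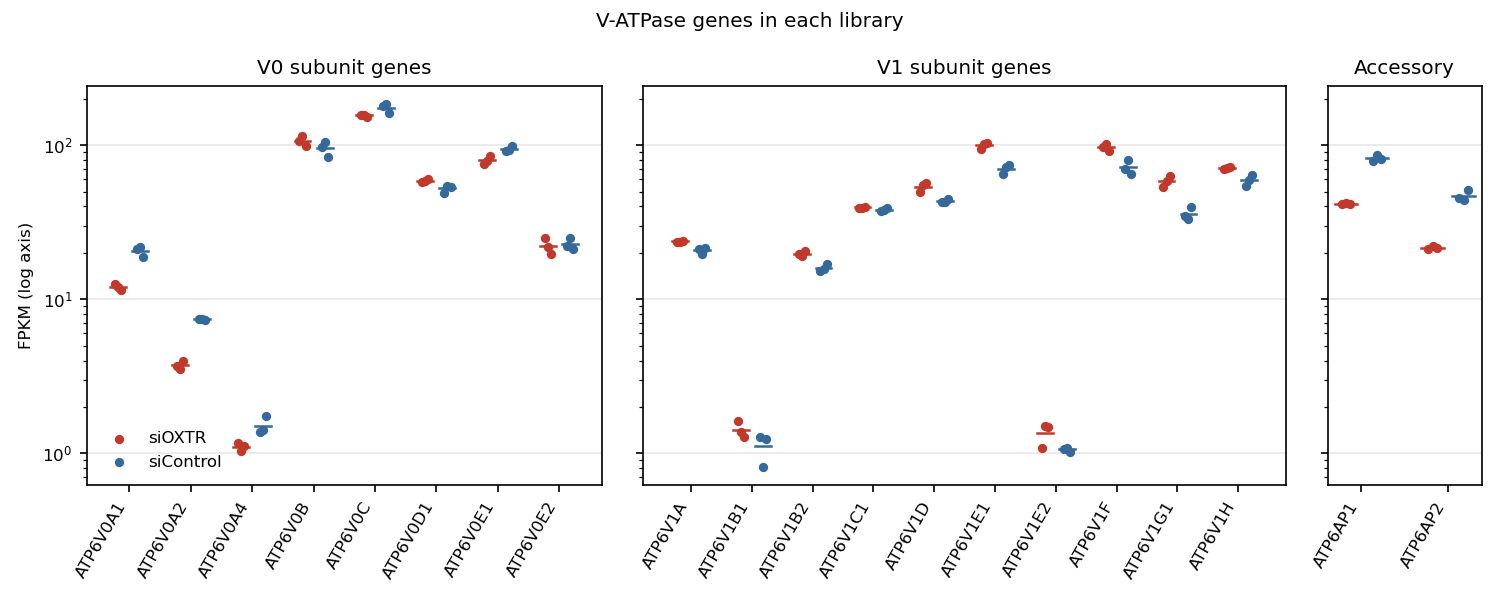
FPKM (log axis) of the tested V-ATPase genes in each library, with siOXTR left of siControl for each gene. Points are libraries and short lines the group means (n = 3 each). The a subunit genes ATP6V0A1 and ATP6V0A2 and both accessory genes are lower in siOXTR, and ATP6V1G1 and ATP6V1E1 are higher.

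Set side by side, the tested V0 genes summed to 440 ± 8.02 FPKM in siOXTR and 470 ± 22.8 FPKM in siControl (SD, n = 3 each), and the tested V1 genes to 466 ± 13.2 FPKM in siOXTR and 358 ± 13.1 FPKM in siControl. V0 genes held 49.4%, 48.7% and 47.7% of the summed V0 and V1 FPKM in the siOXTR libraries, against 57.8%, 57.7% and 54.9% in the siControl libraries. The groups did not overlap in this share, which no scaling of whole libraries can move. The V0 sums themselves overlapped between groups, with 448.46 FPKM in siOXTR replicate 2 and 447.72 FPKM in siControl replicate 3. TCIRG1 and RNASEK, V0 subunits that are named differently, were not counted in these sums and shares. The mean log2(FPKM + 1) of V0 genes less that of V1 genes was -0.067 ± 0.055 in siOXTR and 0.486 ± 0.079 in siControl (SD, n = 3 each). The median log2 fold change of V0 genes less that of V1 genes was -0.48. No test was made of these class values, because the genes of a class are not replicates.

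**Figure D3:**
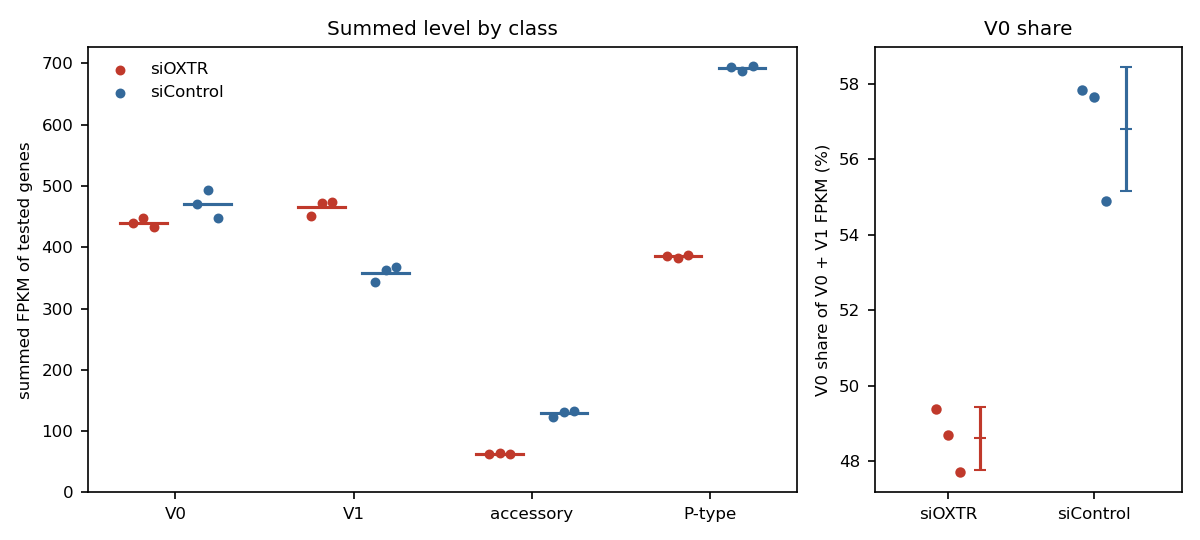
Left, summed FPKM of the tested V0, V1, accessory and P-type genes in each library, siOXTR left of siControl, with lines at the group means. Right, V0 genes' share of the summed V0 and V1 FPKM in percent, with mean and SD (n = 3 each, axis not from 0). V1 sums are higher and accessory and P-type sums lower in siOXTR, and the V0 share is lower in all 3 siOXTR libraries.

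Other genes linked to the V-ATPase, not all of them for its subunits, are named differently and were read from a separate list. Of 13 such genes, all tested, 8 rose and none fell, with a median log2 fold change of 0.20, beside 42.2% higher, 17.6% lower and a median of 0.13 over all tested genes. After median-ratio scaling 4 were higher and 2 lower, beside 19.8% higher and 24.2% lower of all tested genes. TCIRG1, the a3 isoform of the V0 a subunit and the most abundant of the a genes by FPKM, averaged 35.7 ± 1.91 FPKM in siOXTR and 40.0 ± 3.45 FPKM in siControl (-0.16, SE 0.068, adjusted p = 0.0627), and after scaling it was lower (-0.28, adjusted p = 0.00455). It made up 67.9% ± 0.803 of the FPKM of the a genes in siOXTR and 57.5% ± 2.32 in siControl (SD, n = 3 each). RNASEK, another V0 subunit, had a log2 fold change of 0.022 (adjusted p = 0.799). The largest changes of this list were the rises of MEAK7 (0.50), TLDC2 (0.48), ROGDI (0.48), a partner of the V1 assembly factor RAVE, and CCDC115 (0.40), a V-ATPase assembly factor. TLDC2 entered the test only through its siOXTR values, with means of 1.48 FPKM in siOXTR and 0.787 FPKM in siControl, and it did not pass after scaling (adjusted p = 0.0567). The complex of Ragulator and Rag GTPases docks on the lysosomal V-ATPase to signal amino acid supply to mTORC1. Of the 9 tested genes listed for it, SLC38A9 included, 6 rose and 1 fell (median 0.29), and after scaling 5 were higher and 1 lower. The same shares of all tested genes apply here, 42.2% higher and 17.6% lower as deposited and 19.8% higher and 24.2% lower after scaling. The single fall was that of SLC38A9, a lysosomal membrane transporter that senses arginine, at 6.98 ± 0.283 FPKM in siOXTR and 11.5 ± 0.204 FPKM in siControl (-0.64, SE 0.060, adjusted p = 2.49e-06). RRAGB, LAMTOR1 and LAMTOR3 rose by 0.46, 0.42 and 0.31 on the log2 scale.

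Among P-type pumps, both tested beta subunit genes of the Na/K pump fell, beside 17.6% of all tested genes. The beta subunit is needed for the pump to reach the cell surface, and ATP1B1 held 14.89, 17.24 and 16.76 FPKM in siOXTR and 29.35, 31.75 and 33.18 FPKM in siControl (-0.91, SE 0.068, adjusted p = 3.33e-07). ATP1B3, the more abundant beta form, held 70.97, 76.03 and 77.17 FPKM in siOXTR and 116.07, 121.02 and 123.24 FPKM in siControl (-0.68, SE 0.053, adjusted p = 5.78e-07). The groups were apart in both genes. Of the FXYD regulators that bind the Na/K pump, 2 were tested. FXYD3 rose (0.25, adjusted p = 0.0173) but not after scaling (0.13, adjusted p = 0.183). FXYD5, at 300.1 ± 10.0 FPKM in siOXTR and 306 ± 13.2 FPKM in siControl, did not pass (-0.029, adjusted p = 0.671) but was lower after scaling (-0.15, adjusted p = 0.0415).

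The calcium pumps fell in 3 of 4 tested genes, where 17.6% of all tested genes were lower. ATP2C1, the calcium and manganese pump of the Golgi, held 59.39, 57.29 and 57.93 FPKM in siOXTR and 104.23, 102.64 and 112.50 FPKM in siControl (-0.86, SE 0.053, adjusted p = 5.96e-08). ATP2B1, which expels calcium across the plasma membrane, held 5.57, 5.59 and 6.17 FPKM in siOXTR and 9.73, 9.50 and 9.37 FPKM in siControl (-0.64, SE 0.063, adjusted p = 4.55e-06). ATP2A2 (SERCA2), which refills the endoplasmic reticulum, held 32.97, 30.71 and 32.00 FPKM in siOXTR and 49.14, 48.33 and 45.41 FPKM in siControl (-0.56, SE 0.055, adjusted p = 3.79e-06). None of these groups overlapped. ATP2C2, the second Golgi-type pump, had a mean of 6.22 ± 0.270 FPKM in siOXTR and 6.94 ± 0.400 FPKM in siControl and did not pass (-0.14, SE 0.066, adjusted p = 0.0881), though it was lower after scaling (-0.25, adjusted p = 0.00902). Of the list for SERCA regulation and store-operated calcium entry, the SERCA regulators found (PLN, STRIT1 and MRLN) were under 1 FPKM and not tested. Of the 6 tested genes, which were the STIM and ORAI genes and TMCO1, 3 fell and none rose. Over all tested genes 17.6% were lower and 42.2% higher. The falls were those of STIM1 (-0.88), STIM2 (-0.32) and TMCO1 (-0.24). STIM1, the sensor of calcium in the endoplasmic reticulum, averaged 26.2 ± 1.06 FPKM in siOXTR and 49.0 ± 2.98 FPKM in siControl, while the channel genes ORAI1 (0.032), ORAI2 (-0.091) and ORAI3 (0.014) did not pass. After scaling ORAI2 was lower as well (-0.20, adjusted p = 0.0315).

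Both copper pumps were low, and ATP7B fell. ATP7B held 1.12, 0.92 and 1.07 FPKM in siOXTR and 2.29, 1.76 and 1.89 FPKM in siControl (-0.55, SE 0.090, adjusted p = 0.000297). ATP7A averaged 0.677 ± 0.0569 FPKM in siOXTR and 1.38 ± 0.0794 FPKM in siControl (-0.51, SE 0.081, adjusted p = 0.000260). ATP7A was under 1 FPKM in every siOXTR library and entered the test only through its siControl values, so its call is given as a description. It also passed where no filter on low values was used (adjusted p = 0.000618). The ratios of means were 0.524 and 0.490, so log2(FPKM + 1) understates both differences. Among 6 genes of copper uptake and copper chaperones, 4 rose and 1 fell, beside 42.2% higher and 17.6% lower of all tested genes as deposited. After scaling 2 were higher and 1 lower, beside 19.8% higher and 24.2% lower of all tested genes. The fall was that of SLC31A1 (-0.42, adjusted p = 0.000136), the copper importer of the cell surface, and the rises were those of the soluble chaperone genes CCS (0.42), COX17 (0.36) and ATOX1 (0.21), and of COMMD1 (0.28). ATOX1 (0.087, adjusted p = 0.331) and COMMD1 (0.17, adjusted p = 0.102) did not pass after scaling.

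Of the 6 tested P4 flippases 5 fell, beside 17.6% of all tested genes. ATP8B1, a flippase of the apical membrane of epithelial cells, held 12.09, 11.09 and 11.52 FPKM in siOXTR and 25.59, 23.14 and 24.28 FPKM in siControl (-1.01, SE 0.060, adjusted p = 4.06e-08). ATP11A, which returns phosphatidylserine to the inner leaflet, held 4.12, 3.43 and 3.29 FPKM in siOXTR and 7.04, 6.33 and 5.93 FPKM in siControl (-0.69, SE 0.084, adjusted p = 2.77e-05). ATP9A, found on endosomes, held 8.97, 8.72 and 8.73 FPKM in siOXTR and 15.62, 14.28 and 12.83 FPKM in siControl (-0.63, SE 0.071, adjusted p = 1.35e-05). The groups were apart in each. ATP11B (-0.34) also fell, and ATP10D, at 1.23 ± 0.122 FPKM in siOXTR and 1.29 ± 0.0900 FPKM in siControl, did not pass (-0.039, SE 0.082, adjusted p = 0.698). Most P4 flippases need a CDC50 subunit to leave the endoplasmic reticulum, and both tested CDC50 genes fell. TMEM30A averaged 18.1 ± 0.405 FPKM in siOXTR and 35.3 ± 2.42 FPKM in siControl (-0.92, SE 0.060, adjusted p = 9.12e-08), and TMEM30B 12.1 ± 0.191 FPKM in siOXTR and 17.7 ± 0.983 FPKM in siControl (-0.51, SE 0.059, adjusted p = 1.93e-05).

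The P5 pumps fell in all 3 tested genes, beside 17.6% of all tested genes. ATP13A2, a lysosomal polyamine exporter, held 7.52, 7.12 and 6.13 FPKM in siOXTR and 15.82, 17.04 and 14.99 FPKM in siControl, a fall of 2.30-fold (-1.10, SE 0.076, adjusted p = 1.71e-07). ATP13A1, which removes misplaced helices from the endoplasmic reticulum membrane, held 6.73, 6.97 and 6.80 FPKM in siOXTR and 10.11, 10.51 and 10.36 FPKM in siControl (-0.53, SE 0.058, adjusted p = 1.10e-05). ATP13A3, a polyamine transporter and the most abundant P5 gene, averaged 40.6 ± 0.556 FPKM in siOXTR and 58.6 ± 5.68 FPKM in siControl (-0.52, SE 0.066, adjusted p = 4.54e-05). None of these groups overlapped. Summed over the 18 tested genes, P-type pumps held 386 ± 2.51 FPKM in siOXTR and 692 ± 4.45 FPKM in siControl (SD, n = 3 each).

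**Figure D4:**
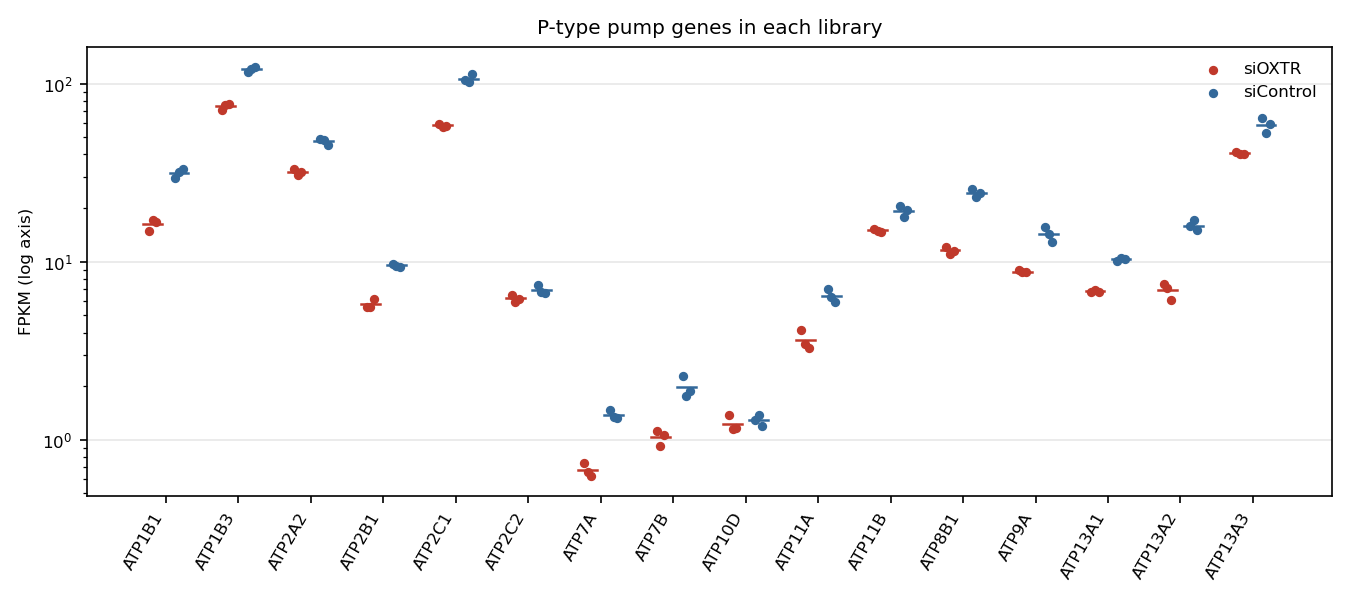
FPKM (log axis) of 16 of the 18 tested P-type genes in each library, with siOXTR left of siControl for each gene. Points are libraries and short lines the group means (n = 3 each). Of the genes drawn ATP10D alone has overlapping groups, and every other one is lower in all siOXTR libraries.

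The groups did not overlap in 33 of the 38 tested pump genes, 24 lower and 9 higher in siOXTR, beside 64.4% of all tested genes, of which 19.2% were lower and 45.2% higher. A fall of 0.5 or more on the log2 scale that passed the test was seen in 14 of 18 P-type genes, 2 of 8 V0 genes, both accessory genes and none of 10 V1 genes, beside 8.35% of all tested genes. ATP7A is counted in both sets of falls, although it passed the limit of 1 FPKM only through its siControl values.

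Hydrophobic segments were counted in each protein from its coding sequence in GENCODE release 29 as separate windows of 19 residues whose Kyte-Doolittle hydropathy averaged 1.7 or more, which is a simple prediction. The 10 tested V1 proteins and that of ATP6V0D1 had 0 segments, and 8 of these 11 genes rose (72.7%, median 0.27). Of the 8340 other tested genes with 0 segments 50.1% rose, with a median of 0.17. The 15 pump genes with 6 or more segments had a median of -0.56, and 13 of them fell (86.7%). ATP7A, counted among these falls here and at the cut of 0.5 below, passed the limit of 1 FPKM only through its siControl values. The 315 other tested genes with 6 or more segments had a median of -0.43, and 75.2% of them fell, while falls of at least 0.5 (log2) made up 80.0% of the 15 pump genes and 42.2% of these other genes. That genes for membrane proteins fell was already known from these data, and no test of the difference was made. The 12 pump genes with 1 to 5 segments had a median of -0.56, and the 2775 other genes in that range a median of -0.069.

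Segments did not rank the pumps beyond their presence. Across the 38 tested genes Spearman's rho with the log2 fold change was -0.646 for the number of segments and -0.475 for protein length, and among the 27 genes with at least 1 segment it was -0.069 and -0.093. These describe genes measured in the same 6 libraries, and segments and length went together (rho 0.774). ATP6AP1, with 1 segment, and ATP1B1, also with 1, were at -0.97 and -0.91, whereas ATP6V0B with 5 segments in 205 residues was at 0.16 and ATP6V0C with 4 in 155 residues was at -0.17.

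**Figure D5:**
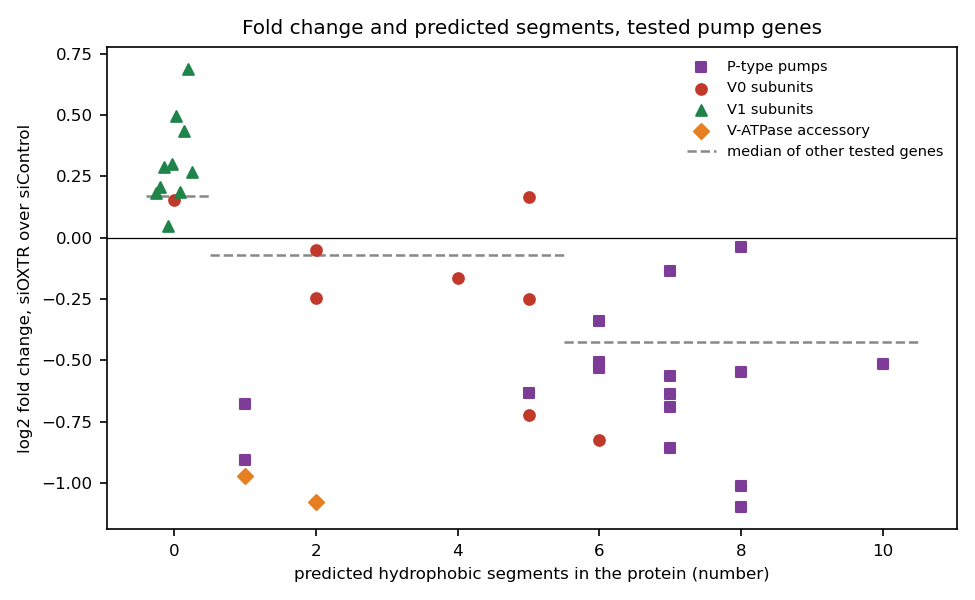
Log2 fold change (siOXTR over siControl) of 36 of the 38 tested pump genes against the number of predicted hydrophobic segments in the protein, with V1 points spread sideways around 0 for legibility. Dashed lines are medians of other tested genes with 0 (0.17), 1 to 5 (-0.069) and 6 or more segments (-0.43). Genes with 0 segments lie above 0 and all genes drawn with a segment except ATP6V0B lie below it.

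The other 24 members had a mean under 1 FPKM and were not tested. In no library did one of them exceed 1.08 FPKM. Among them were ATP1B2 and ATP1B4 of the Na/K pump, ATP2A1, ATP2A3, ATP2B2, ATP2B3 and ATP2B4 of the calcium pumps, the flippases ATP8A1, ATP8A2, ATP8B2, ATP8B3, ATP8B4, ATP9B, ATP10A and ATP10B, the P5 genes ATP13A4 and ATP13A5, and ATP6V0D2, ATP6V1C2, ATP6V1FNB, ATP6V1G2 and ATP6V1G3. Of these, ATP6V1FNB is a neighbour of ATP6V1F that shares its prefix and is not known as a pump subunit. The member closest below the limit, ATP6V1C2, held 0.98, 0.97 and 1.08 FPKM in siOXTR and 0.58, 0.82 and 0.66 FPKM in siControl, and the one closest above it, ATP7A, is given among the copper pumps. ATP2B4 held 0.21, 0.34 and 0.34 FPKM in siOXTR and 0.61, 0.61 and 0.55 FPKM in siControl. ATP6V1G3 was listed at 0 in all siControl libraries and at 0.00, 0.10 and 0.11 FPKM in siOXTR.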

How the data were processed

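RNA of 3 siOXTR and 3 siControl libraries of SNU216 cells, 48 h after transfection, was extracted with Trizol and sequenced on a BGISEQ-500, as the labels' protocols state. The authors deposited FPKM values, per the file headers, to 2 decimals. The submitters' processing notes name GRCh38.p13, while aligner, quantifier and annotation are not given in the sources used. Because FPKM is relative to the library's total, falls in abundant genes push the rest up. A search of low values for the steps of whole fragments gave a coherence of at most 0.085 of a possible 1, so depth is unknown and no count model was used.

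The 11550 of 17318 genes averaging 1 FPKM or more entered a limma fit (limma 3.58.1, R 4.3.3) of log2(FPKM + 1) (group as the only term, mean trend, robust prior, two-sided, Benjamini-Hochberg adjustment over all tested genes, threshold 0.05), after the fit was tested on simulated data. In the simulation few genes changed and no library was shifted as a whole, unlike here, so it does not test the choice of scaling. An exact test of 3 libraries against 3 cannot give a p below 0.1 and was not used. Tested pump genes are named except a few that are not reported here and count only in class totals. V-ATPase genes and, of the 12 P-type genes with the largest changes, those reported are given by library, and of each related list the genes with the largest changes. ATP7A, ATP13A3, ATP6V1C2, ATP2B4 and the promoters shown were chosen for detail after their values were seen. The pump genes and lists were chosen with earlier results of these data known. Alternatives were a pseudocount of 0.1, no filter, median-ratio scaling, a replicate block, a plain variance prior and leaving out each library. Same-numbered libraries' deviations from their group means correlated at 0.107, 0.0042 and 0.16, so the numbers were not taken as pairs.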

Additional observations from a re-analysis of the deposited data

How the results depend on the processing

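Of the 38 tested pump genes, each under 11 alternatives, 395 of 418 values kept their direction and their side of the threshold. The genes behind the exceptions were ATP2C2, ATP6V0A4, ATP6V0B, ATP6V0C, ATP6V0D1, ATP6V0E2, ATP6V1A, ATP6V1C1, ATP6V1E2 and ATP6V1H. Reversals were those of ATP6V0E2, which ranged from -0.14 to 0.032 when 1 library was left out, without siOXTR replicate 3 (0.032) and without siControl replicate 2 (0.013), and of ATP6V1C1 after median-ratio scaling (-0.073). ATP6V1E2 passed without siOXTR replicate 1 (0.27, adjusted p = 0.0255, limma), and its adjusted p is 0.0947 with all libraries. ATP6V0C lost its call without the filter on low values (adjusted p = 0.0550).

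The count of pump genes higher was 8 of 38, and 5 after median-ratio scaling. Beside these and the counts below, 42.2% of all tested genes were higher and 17.6% lower as deposited. After scaling 19.8% of all tested genes were higher and 24.2% lower. V0 genes lower numbered 5, and 3 to 4 when 1 library was left out. V0 genes higher numbered 1, then 0 after median-ratio scaling and 0 to 2 when 1 library was left out. P-type genes lower stayed at 16 in every fit that left out 1 library. Median-ratio scaling moved the median log2 fold change to -0.31 for V0, 0.16 for V1, -1.03 for Na/K pumps, -0.72 for calcium pumps, -0.67 for P4 flippases and -0.64 for P5 pumps. With no filter the medians were 0.23 for V1, -0.12 for Na/K pumps, -0.17 for calcium pumps, -0.059 for P4 flippases and -0.52 for P5 pumps, and V0 less V1 was -0.40, because members near 0 FPKM entered. A pseudocount of 0.1 gave -0.65 for calcium pumps, -0.90 for copper pumps, -0.64 for P4 flippases and -0.59 for P5 pumps. Leaving out 1 library gave 0.26 to 0.32 for V1 (highest without siControl replicate 3) and -0.59 to -0.53 for P5 pumps.

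With the replicate block 7205 genes were called, against 6905 without it, and 2 V0 genes were higher, ATP6V0B joining (adjusted p = 0.0119, limma). No other pump gene's call changed under the block. The libraries' numbers are shared in name only, and siOXTR replicate 2 deviated most like siControl replicate 3 (0.184). With 3 libraries a group and unknown depth, differences of the size seen for ATP6V0B cannot be settled here.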
